A study of Mus musculus with 4 samples.

Results

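The GATA transcription factors and their FOG cofactors were followed in 2 mouse testicular cell lines, GC-2 and GC-1. The members were all probes of the array whose gene name was Gata1, Gata2, Gata3, Gata4, Gata5, Gata6, Zfpm1 (the gene of FOG1) or Zfpm2 (the gene of FOG2). This gave 8 of the 37074 gene names on the array and 14 of its 56605 probes, 9 for the GATA genes and 5 for the FOG genes. GC-2 (2 arrays) and GC-1 (2 arrays) are both labelled as germ cell lines. As background, GC-2 comes from mouse spermatocytes that carry SV40 large T antigen together with a p53 mutant sensitive to temperature, and GC-1 from type B spermatogonia that carry large T antigen. Each line is an immortalised culture, and the labels give no treatment. The series revisits the characteristics of the lines, and its arrays allow 1 comparison, GC-2 against GC-1. Nothing in the labels says that the 2 replicates of a line came from separate cultures. The p-values therefore cover the spread between these arrays alone, and it may be technical.

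GATA factors are zinc finger proteins that bind DNA sites with the core letters GATA. GATA1, GATA2 and GATA3 are best known from blood cells, and GATA4, GATA5 and GATA6 from heart, gut and gonad. FOG1 and FOG2 do not bind DNA themselves but bind the amino-terminal zinc finger of a GATA factor and bring corepressors to it. In the mouse testis GATA4 and GATA6 are made mainly in Sertoli and Leydig cells, GATA1 in Sertoli cells, and GATA4 with FOG2 is needed for the testis to form.

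Levels are given as the processed Cy3 signal of a probe, in arbitrary units, and as a normalized level, the log2 signal minus the 75th percentile of that array on the log2 scale. That percentile was 416 and 199.9 on the GC-2 arrays, against 666 and 693 on the GC-1 arrays, so signals of the lines can only be compared after normalization. Of all probes, 62.0% and 57.5% were well above background in GC-2, against 64.9% and 63.6% in GC-1. The number of arrays limits the precision. Changes are GC-2 minus GC-1 on the log2 scale, with the SE from limma (n = 2 arrays per line), and a probe was called higher or lower at a Benjamini-Hochberg adjusted p under 0.05 over 36692 probes. The 4 arrays shared 1 slide, each line in its own row of it, and the effects of row and line cannot be told apart. The median change of all probes tested was 0.07. The germ cell label was set against 15 germ cell marker genes, of which 2 were measured in GC-2 and 6 in GC-1. Zbtb16 and Prm1 were well above background on all 4 arrays, and Ddx4, Acr, Piwil2 and Id4 on both GC-1 arrays, with Ddx4 and Acr also on 1 GC-2 array. Stra8 and Sycp1 were each well above background on 1 GC-1 array alone, and Sycp3 on 1 GC-2 array alone. Dazl, Kit, Mael, Piwil1, Dmc1 and Tex101 were well above background on no array.

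Of the 13 member probes tested, 3 were higher in GC-2, both probes of Gata4 and 1 of Gata5. Another 7 were lower in GC-2, which were the probes of Gata1, Gata2 and Gata3, both of Gata6, 1 of 2 of Zfpm1 and 1 of 3 of Zfpm2. The other 3 probes, all of FOG genes, did not pass the threshold. Among all probes tested, 45.7% were called, 24.1% higher and 21.6% lower in GC-2. One of the 14 member probes, the second of Gata5, was well above background on no array and was not tested. The probe of Gata1 and a probe of Zfpm2 were well above background in GC-1 only, so they entered the test through the line in which they were brighter. Of the 11 member probes well above background on all 4 arrays, 3 were higher, 5 lower and 3 not called, against 42.6% called, 23.8% higher and 18.8% lower, among all 30316 such probes. The median change of the 13 member probes was -2.07.

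**Figure D1:**
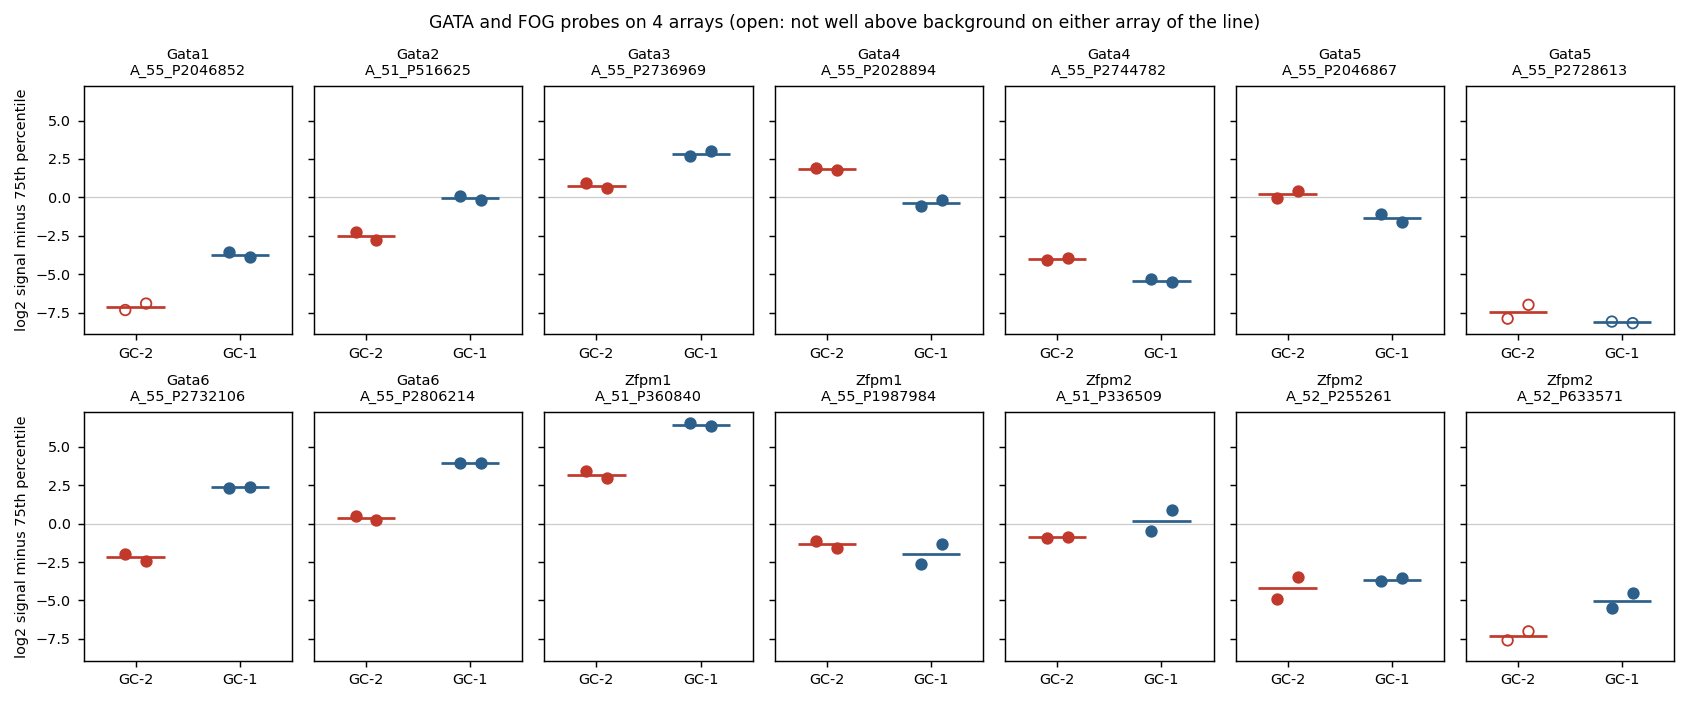
Normalized level (y axis, log2 signal minus the 75th percentile of the array) of each of the 14 GATA and FOG probes, with GC-2 at the left and GC-1 at the right of each panel. Points are single arrays, lines are means of 2 arrays, and open points mark a line in which the probe was well above background on neither array. The GC-2 points lie above the GC-1 points for both Gata4 probes and the first Gata5 probe, and below them for Gata1, Gata2, Gata3, Gata6 and the first Zfpm1 probe.

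Gata4 encodes the GATA factor of Sertoli and Leydig cells that is needed for the genital ridge and testis, and it was higher in GC-2 on both of its probes. Probe A_55_P2028894, at chr14:63817858-63817917 (minus strand, mm9), had signals of 1548 and 698 in GC-2, against 454 and 625 in GC-1. After normalization its levels were 1.90 and 1.80 in GC-2, against -0.55 and -0.15 in GC-1. Both GC-2 arrays lay above both GC-1 arrays. The change was 2.20 ± 0.26, a 4.60-fold higher level in GC-2 (limma adjusted p = 0.00212).

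The second Gata4 probe, A_55_P2744782, at chr14:63860003-63860062 (minus strand), was much closer to background. Its signals were 25.2 and 13.1 in GC-2, against 16.8 and 14.9 in GC-1, and they overlapped between the lines before normalization. Normalized levels were -4.04 and -3.93 in GC-2, against -5.31 and -5.54 in GC-1, with no overlap. The dimmest probes still well above background lay at -5.58 and -4.69 in GC-2, against -6.19 and -5.92 in GC-1. The change was 1.43 ± 0.24, or 2.70-fold (limma adjusted p = 0.00628).

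The rises of Gata4 rest on how the arrays are scaled. The array holds probes for E1A, an RNA that can be added at labelling as a spike-in. The 8 of its 10 probes that were well above background on every array were all higher in GC-2, by a mean of 2.07 (SD 0.46 over the 8 probes). With each array scaled to these probes, the Gata4 changes were 0.13 (limma adjusted p = 0.743) for A_55_P2028894 and -0.63 (limma adjusted p = 0.115) for A_55_P2744782, and neither was called. That scaling moved the median change of all probes to -1.999, against 0.07. It subtracts 1 constant per array, so the place of a probe relative to that median cannot change.

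Gata6, the other GATA factor of Sertoli and Leydig cells and a factor of early endoderm, fell on both probes. Probe A_55_P2806214, at chr18:11085494-11085553 (plus strand, mm9), had signals of 580.3 and 231.8 in GC-2, against 10404 and 10527 in GC-1. Its normalized levels were 0.48 and 0.21 in GC-2, against 3.97 and 3.93 in GC-1. The GC-1 arrays were both far above the GC-2 arrays, by more than the spread within either line. The change was -3.60 ± 0.24, a 12.1-fold lower level in GC-2 (limma adjusted p = 0.000415). Probe A_55_P2732106, at chr18:11057522-11057581 and named after a cDNA clone of a Gata6 fragment, had signals of 108 and 36.8 in GC-2, against 3340 and 3680 in GC-1. The change of this probe was -4.56 ± 0.27, or 23.6-fold lower in GC-2 (limma adjusted p = 0.000316), with normalized levels of -1.95 and -2.44 in GC-2 and 2.33 and 2.41 in GC-1.

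Gata6 has an antisense neighbour, Gata6os, which is named here because it lies beside a member. Its 3 probes were all lower in GC-2. The brightest, A_55_P2042973, had signals of 18.8 and 6.71 in GC-2, against 530 and 446 in GC-1. It was well above background on 1 of 2 GC-2 arrays, and its change was -4.20 ± 0.28 (limma adjusted p = 0.000404). Both other Gata6os probes were not well above background in GC-2. A_55_P2509460 was at least 12.0-fold lower there (limma adjusted p = 0.000444), and A_66_P122960 at least 1.31-fold (limma adjusted p = 0.00304). Such a bound sets the mean of GC-1 against the lowest signal well above background on the GC-2 arrays, or the signal of the probe where that is higher. Here and below, the adjusted p beside a bound is that of the fitted change and does not test the bound.

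Gata1, the erythroid and megakaryocyte factor that Sertoli cells of the mouse also make, was measured in GC-1 alone. Its only probe, A_55_P2046852, at chrX:7536392-7536451 (minus strand), had signals of 2.58 and 1.66 in GC-2, against 55.8 and 47.1 in GC-1. Neither GC-2 array had it well above background while both GC-1 arrays did, and the groups did not overlap. The level was at least 2.66-fold lower in GC-2 (limma adjusted p = 0.000719), and the measured means were -7.12 in GC-2 and -3.73 in GC-1 on the normalized scale. With the normexp background correction, which starts from the raw spot signal and its local background, the change was 0.33 (limma adjusted p = 0.462). The median change of all probes was 0.503 under that correction.

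Markers of the cell types known for these factors were counted beside them, taking for each gene the brightest of its tested probes. Summed levels take the brightest probe of each gene on each array, tested or not. Among all 17437 genes tested, 44.1% were called, 18.3% higher and 25.7% lower in GC-2. Of 12 Sertoli cell markers, which include Gata4 and Gata1 themselves, 10 were tested, 2 were higher and 7 lower in GC-2, and their summed level was 74.0 and 43.8 in GC-2, against 556 and 455 in GC-1, in multiples of the 75th percentile of the array. Most of these sums came from Clu in GC-2, and from Clu, Wt1 and Trf in GC-1. Gata1 and Fshr, both among the 7, were well above background in GC-1 only and entered the test through it. Amh and Cldn11 were well above background on no array. Of 9 Leydig cell markers, 4 were tested, 3 were higher and 1 lower, with sums of 12.6 and 14.7 in GC-2, against 0.410 and 0.443 in GC-1. Most of the GC-2 sums came from Nr5a1, at normalized levels of 3.45 and 3.58 in GC-2, against -2.72 and -2.62 in GC-1. Cyp11a1, the 1 that was lower, was well above background in GC-1 only and entered the test through it. Hsd3b1, Hsd3b6, Hsd17b3 and Lhcgr were well above background on no array. Of 9 erythroid and megakaryocyte markers, 5 were tested, 1 was higher and none lower, with sums of 0.585 and 0.552 in GC-2, against 0.377 and 0.316 in GC-1. Hbb-b1, Alas2 and Gp9 were well above background on no array. The part of other cell types in the GATA changes was not tested, and in bulk RNA fewer cells of a type and less RNA per cell cannot be told apart.

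Gata2, a factor of blood stem cells, mast cells and endothelium, was lower in GC-2. Its probe A_51_P516625, at chr6:88156835-88156894 (plus strand), had signals of 89.0 and 29.3 in GC-2, against 709 and 618 in GC-1. Normalized levels were -2.22 and -2.77 in GC-2, against 0.09 and -0.16 in GC-1. Both GC-2 arrays were below both GC-1 arrays. The change was -2.46 ± 0.29, or 5.51-fold lower (limma adjusted p = 0.00216). Of 8 endothelial markers, 5 were tested, 2 were higher and 1 was lower in GC-2 (44.1% of all genes tested were called), with sums of 8.22 and 6.46 in GC-2, against 14.0 and 14.7 in GC-1. Of 8 mast cell and eosinophil markers, 4 were tested, 1 was higher and none lower, with sums of 0.457 and 0.409 in GC-2, against 0.290 and 0.474 in GC-1. Their part in the Gata2 change was not tested.

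Gata3, the factor of T cells and of mammary and urinary tract epithelium, was lower in GC-2 as well. Its probe A_55_P2736969, at chr2:9779495-9779554 (minus strand), had signals of 795 and 299.8 in GC-2, against 4224 and 5553 in GC-1. Normalized levels were 0.93 and 0.58 in GC-2, against 2.67 and 3.003 in GC-1, with no overlap. Gata3 was well above background on all 4 arrays. The change was -2.07 ± 0.27, or 4.21-fold lower (limma adjusted p = 0.00291). Of 9 epithelial markers, 7 were tested and 6 were lower in GC-2, against 25.7% lower among all genes tested, with sums of 1.24 and 1.20 in GC-2, against 671 and 860 in GC-1. Krt8 and Dsp, both among the 6, were well above background in GC-1 only and entered the test through it. Epcam was well above background on 1 GC-1 array alone and Cdh1 on 1 GC-2 array alone, and neither was tested. Of 10 T cell and macrophage markers, 7 were tested, 3 were higher and 1 was lower, with sums of 14.8 and 14.3 in GC-2, against 35.1 and 23.1 in GC-1. Their part in the Gata3 change was not tested.

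Gata5, a factor of the endocardium and gut epithelium, had 2 probes. A_55_P2046867, at chr2:180059867-180059926 (minus strand), had signals of 408 and 266 in GC-2, against 316 and 230.2 in GC-1. These signals overlapped, and the normalized levels, -0.03 and 0.41 in GC-2 and -1.07 and -1.59 in GC-1, did not. The change was 1.52 ± 0.30, or 2.88-fold higher in GC-2 (limma adjusted p = 0.0113). It did not pass the threshold without GC-1 replicate 2 (1.27, limma adjusted p = 0.0598) or without GC-2 replicate 2 (1.30, limma adjusted p = 0.0524), and was -0.54 under the spike-in scaling (limma adjusted p = 0.177).

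The other Gata5 probe, A_55_P2728613, at chr2:180062201-180062260 (minus strand), was made for a cDNA clone described as having a retained intron. Its signals were 1.75 and 1.57 in GC-2, against 2.45 and 2.38 in GC-1, and it was well above background on no array. The probe of the antisense neighbour Gata5os was well above background on no array either. The level of Gata5 therefore rests on 1 probe.

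The sequence of that measured Gata5 probe is shared in part with other transcripts, which is why it is shown. The bases printed are 30 to 59 of the 60 of the probe, chr2:180059868-180059897 (minus strand, mm9), from the authors' files. The capitals mark 19 bases covered by runs of at least 16 that also occur in probes of other genes.
Gata5 A_55_P2046867: CTGGCTGTCCTGGAACTCAttatgtagacc
Another 4 probes, of other genes, hold such a run on the same strand and 11 on the other strand, and 47 of 32851 RefSeq promoter sequences hold one. As background, these letters resemble a B1 short interspersed repeat, a common mouse repeat; no repeat annotation was used here. Of the 4 same-strand probes, 2 were higher in GC-2 and none lower. Slc3a2 changed by 2.29 ± 0.31 (limma adjusted p = 0.00331) and Timmdc1 by 2.25 ± 0.31 (limma adjusted p = 0.00371). Bbs1 was at 0.90 (limma adjusted p = 0.0813) and 4930519A11Rik at 0.64 (limma adjusted p = 0.141). Whether transcripts with such a run add to the Gata5 signal was not tested. Of the other 13 member probes, 12 shared no run of that length with a probe of another gene, and A_55_P1987984 of Zfpm1 shared one with 1 probe.

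**Figure D2:**
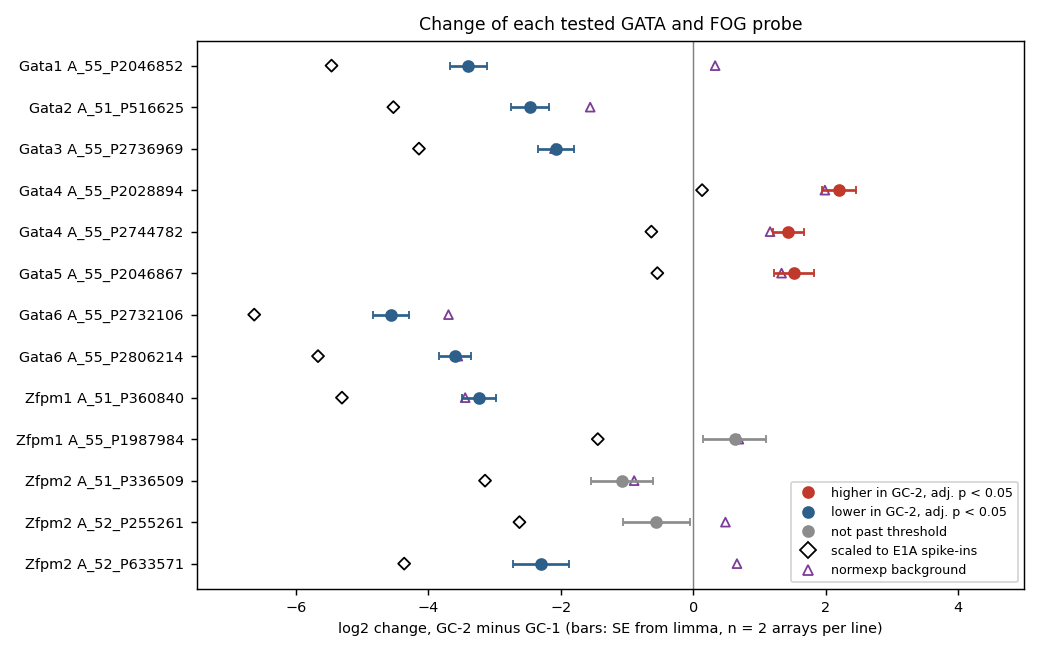
Change of each tested GATA and FOG probe (x axis, log2, GC-2 minus GC-1). Filled points with bars are changes and SE from limma, coloured by call, diamonds are the changes after scaling to the E1A spike-in probes, and triangles those with the normexp background correction. The diamonds lie to the left of the filled points by about the 2.07 of the spike-in, and the triangles cross 0 for Gata1 and for 2 Zfpm2 probes.

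Zfpm1 encodes FOG1, the cofactor of GATA1 in red cells and platelets, and its 2 probes did not move alike. Both lie on chromosome 8, with 240 bases between them on mm9. Their first 30 bases are given from the authors' files, since the 2 probes read separate sequences. What made the probes differ was not tested. A_51_P360840 begins at chr8:124861053-124861082 (plus strand) and belongs to the RefSeq mRNA, and A_55_P1987984 begins at chr8:124861353-124861382 (plus strand) and is named after a predicted transcript alone.
Zfpm1 A_51_P360840: tattactgctcttctcacgccgccgagcac
Zfpm1 A_55_P1987984: tagagagagtgaaaccttgttcttgctgag

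The first Zfpm1 probe had signals of 4378 and 1596 in GC-2, against 61569 and 55983 in GC-1. Normalized levels were 3.40 and 2.997 in GC-2, against 6.53 and 6.34 in GC-1, and the lines did not overlap. The change was -3.24 ± 0.26, or 9.43-fold lower in GC-2 (limma adjusted p = 0.000721).

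Signals of the second Zfpm1 probe were 194 and 66.7 in GC-2, against 108 and 279.5 in GC-1. Its normalized levels were -1.10 and -1.58 in GC-2, against -2.63 and -1.31 in GC-1. The GC-1 arrays differed from each other by more than the lines did, and the groups overlapped. The change was 0.63 ± 0.48 (limma adjusted p = 0.329) and did not pass the threshold. Leaving out GC-1 replicate 1 gave -0.03, and under the spike-in scaling it was -1.44 (limma adjusted p = 0.0118). The changes of the 2 probes differed by -3.86. An exact permutation test of this difference over 2 against 2 arrays cannot go below p = 0.333 (two-sided).

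Zfpm2 encodes FOG2, the cofactor of GATA4 in heart and gonad, and its 3 probes are spread over a long stretch of chromosome 15. The probe for the RefSeq mRNA, A_51_P336509, begins at chr15:40935115-40935144 (plus strand, mm9). A_52_P255261 begins at chr15:40606107-40606136 and was made for a cDNA clone from embryonic testis, and A_52_P633571 begins at chr15:40703938-40703967 and was made for one from adult adrenal gland. Their first 30 bases, from the authors' files, show that each reads a separate stretch of the gene.
Zfpm2 A_51_P336509: tcaaatgaactaactgagttactaaagaaa
Zfpm2 A_52_P255261: caatggacttcaaagaactatctcttcagt
Zfpm2 A_52_P633571: ttaaactagtttgccaaccaatataatgtt

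The Zfpm2 probe for the RefSeq mRNA had signals of 222.2 and 110.4 in GC-2, against 477 and 1270 in GC-1. Normalized levels were -0.90 and -0.86 in GC-2, against -0.48 and 0.87 in GC-1. Both GC-2 arrays lay below both GC-1 arrays, but the GC-1 arrays were far apart. The change was -1.08 ± 0.47 (limma adjusted p = 0.113). It passed the threshold without GC-1 replicate 1 (-1.75, limma adjusted p = 0.0237), with each array centred on its median (-1.39, limma adjusted p = 0.0422) and under the spike-in scaling (-3.14, limma adjusted p = 3.06e-05).

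The testis clone probe of Zfpm2, A_52_P255261, had signals of 13.6 and 18.2 in GC-2, against 50.03 and 59.3 in GC-1, and normalized levels of -4.93 and -3.46 in GC-2, against -3.73 and -3.55 in GC-1. The 2 GC-2 arrays lay on either side of both GC-1 arrays. The change was -0.56 ± 0.50 (limma adjusted p = 0.403). Without GC-2 replicate 1 it was 0.18 (limma adjusted p = 0.677), without GC-2 replicate 2 it was -1.29 (limma adjusted p = 0.0359), and under the spike-in scaling it was -2.62 (limma adjusted p = 5.68e-05).

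The adrenal clone probe of Zfpm2, A_52_P633571, was well above background in GC-1 alone. Its signals were 2.15 and 1.55 in GC-2, against 14.6 and 30.7 in GC-1, with no overlap. The fit called it lower in GC-2 (limma adjusted p = 0.00859), with measured means of -7.30 in GC-2 and -5.01 in GC-1 on the normalized scale. The level was at least 1.097-fold lower in GC-2. With the normexp background correction the change was 0.66 (limma adjusted p = 0.155), and the median change of all probes was 0.503.

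In the authors' deposited table, which gives 1 log2 value per gene name and array, the GATA genes had the same directions as in the probe data. A limma fit to the authors' deposited table gave 1.77 ± 0.27 for Gata4, 1.48 ± 0.32 for Gata5, -3.44 ± 0.29 for Gata1, -2.51 ± 0.35 for Gata2, -2.12 ± 0.33 for Gata3 and -4.12 ± 0.31 for Gata6, each with an adjusted p between 0.00242 and 0.0349. The FOG genes came out otherwise. In the authors' deposited table Zfpm1 changed by -1.35 ± 0.37 (limma adjusted p = 0.0617) and Zfpm2 by 0.23 ± 0.42 (limma adjusted p = 0.699), so neither was called.

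The values of the authors' deposited table equal, within 0.00241, the mean log2 signal of the probes of a gene that were well above background on that array, minus 1 constant per array. This was checked for the 8 member genes, and Gata1 in GC-2, with no such probe, has the value of its only probe. Zfpm1 in the authors' deposited table is thus the mean of a probe that fell and a probe that was not called. Zfpm2 averages 3 probes on the GC-1 arrays and 2 on the GC-2 arrays, the dimmest probe being left out in GC-2.

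**Figure D3:**
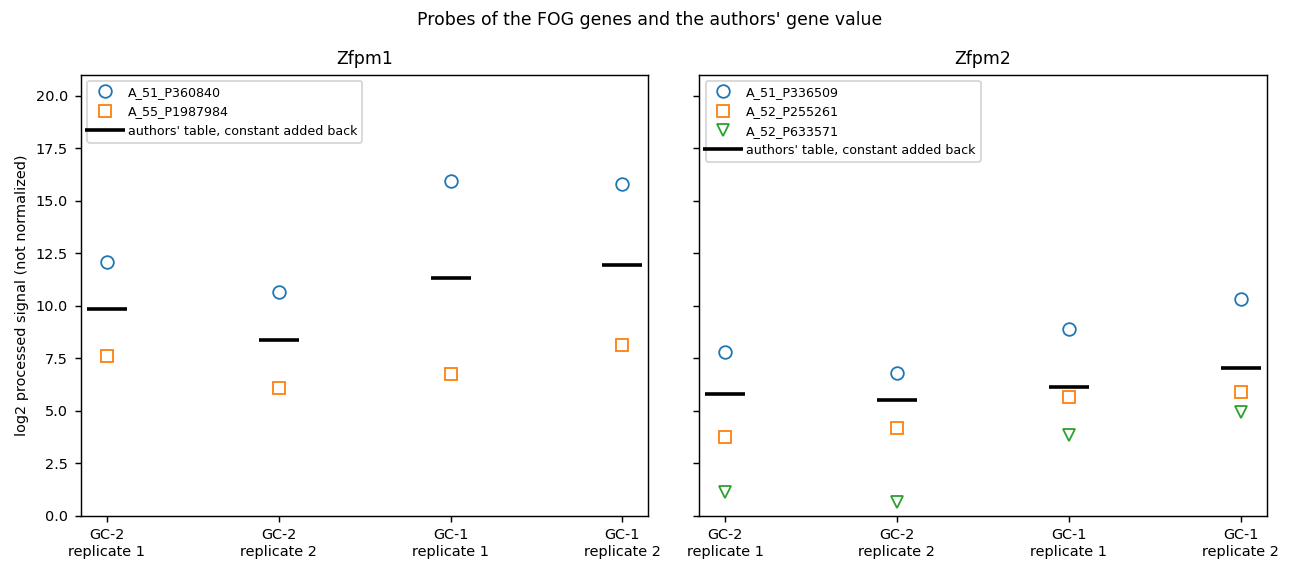
Log2 processed signal, not normalized, of the probes of Zfpm1 (left) and Zfpm2 (right) on the 2 GC-2 and the 2 GC-1 arrays, with a black bar at the gene value of the authors' deposited table after its array constant was added back. The bars lie midway between the Zfpm1 probes on every array, and for Zfpm2 they lie between the upper 2 probes in GC-2 and at the mean of all 3 in GC-1.

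Among the member starts searched, 1 had a GATA site in the sequence around it. RefSeq promoter sequences on GRCm38.p6, of 250 bases before and 50 after a start, were searched on both strands for the letters AGATAA, for the letters AGATAG, for the letters TGATAA and for the letters TGATAG, with overlapping matches allowed. Of 32851 promoters, 29.8% had at least 1. The search covered 6 starts of 5 member genes, and 1 of the 6, that of Gata3, had a match, TGATAG, after the start. Gata6 was left out of the search, and Gata4 and Zfpm2 had no entry among these sequences. The 30 bases at chr2:9878551-9878580 (minus strand, GRCm38.p6) that hold it are shown with the match in capitals.
Gata3: ctgcctggcgccgtctTGATAGtttcagaa
The match is a description of these letters and shows no binding.

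Genes known to work with GATA factors or to be among their targets were counted from lists in the same way, against the same 18.3% higher and 25.7% lower among all 17437 genes tested. The median change of all genes was -0.13. Partner factors, which bind DNA beside GATA proteins or join their complexes, had 18 of 23 genes tested, of which 6 were higher and 4 lower, with a median of -0.16. Nr5a1, the steroidogenic nuclear receptor that acts with GATA4 in the gonad, had signals of 4534 and 2386 in GC-2, against 100.9 and 113 in GC-1, and a change of 6.18 ± 0.23 (limma adjusted p = 0.000146). Mef2c, a muscle and heart factor, was not well above background in GC-1, and its GC-2 level was higher by at least 11.8-fold (limma adjusted p = 0.000157). Lyl1, a blood factor, rose by 1.71 ± 0.29 (limma adjusted p = 0.00646).

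Among the partners that fell, Tal1, which joins GATA1 in red cell complexes, was not well above background in GC-2 and was at least 11.4-fold lower there (limma adjusted p = 0.000337). Hand2, a heart and limb factor, had signals of 32.1 and 25.1 in GC-2, against 1095 and 979 in GC-1, a change of -3.95 ± 0.32 (limma adjusted p = 0.000701). Nkx2-5, the heart partner of GATA4, changed by -3.09 ± 0.25 (limma adjusted p = 0.000694). Lmo2, another member of the red cell complex, stood at -1.37 and was not called (limma adjusted p = 0.0633). It was well above background in GC-1 only and entered the test through that line. Ldb1, from the same list, went the other way and was higher in GC-2 by 1.45 ± 0.23 (limma adjusted p = 0.00579).

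FOG proteins recruit the NuRD complex and CtBP. All 15 genes of these corepressors were tested, 5 were higher and 2 lower in GC-2, and the median was 0.40. Gatad2b, a NuRD subunit with a GATA-type finger, had signals of 427 and 257 in GC-2, against 72.8 and 156 in GC-1, a change of 2.87 ± 0.40 (limma adjusted p = 0.00365). The deacetylase gene Hdac1 rose by 0.99 ± 0.23 (limma adjusted p = 0.0182), and Hdac2 changed by -1.61 ± 0.33 (limma adjusted p = 0.012). The NuRD subunit Mta1 rose by 0.98 ± 0.27 (limma adjusted p = 0.0327), and Mta3 changed by -1.48 ± 0.25 (limma adjusted p = 0.00704). Without any 1 of the 4 arrays only 1 or 2 corepressor genes were higher, without GC-1 replicate 2 being the case with 2. A list of 9 genes with GATA-type fingers outside the GATA family overlaps the corepressor list. The calls of Gatad2b, Mta1 and Mta3 are the same calls in both. Of these 9 genes, 3 were higher and 1 was lower, with a median of 0.66. The higher genes were Gatad2b, Mta1 and Gatad1 (0.96 ± 0.23, limma adjusted p = 0.0215), and the lower gene was Mta3. Without any 1 array 1 or 2 of the 9 were higher.

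Of 18 genes known as GATA targets in the testis soma, 11 were tested, 3 were higher and 5 lower in GC-2, with a median of -0.15. The genes that rose are known from steroid making. Besides Nr5a1 they were Cyp17a1, of the androgen pathway, with signals of 579 and 416 in GC-2, against 114 and 105 in GC-1 (3.40 ± 0.29, limma adjusted p = 0.000842), and Star, the cholesterol importer, with 116 and 119 in GC-2, against 28.4 and 59.3 in GC-1 (2.75 ± 0.50, limma adjusted p = 0.00853). Genes known from Sertoli cells were among those that fell. Dhh, a hedgehog ligand, had signals of 75.7 and 15.5 in GC-2, against 3962 and 1784 in GC-1 (-5.04 ± 0.57, limma adjusted p = 0.00189). Inhbb, an inhibin and activin subunit, changed by -3.46 ± 0.27 (limma adjusted p = 0.000629), and Amhr2, the receptor of anti-Müllerian hormone, by -2.91 ± 0.41 (limma adjusted p = 0.00372). The other 2 genes lower by the fit, Cyp11a1, the first enzyme of steroid making (limma adjusted p = 0.0215), and Fshr, the receptor of follicle-stimulating hormone (limma adjusted p = 0.00847), were not well above background in GC-2 and were too dim in GC-1 for a bound. Sox9, the testis-determining factor of Sertoli cells, stood at 1.103 ± 0.58 and was not called (limma adjusted p = 0.17). Amh, a target of GATA4, was well above background on no array.

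Of 20 GATA targets of blood cells, 10 were tested, 3 were higher and 2 lower, with a median of 0.31. Klf1, a red cell factor that GATA1 turns on, had signals of 73.7 and 36.1 in GC-2, against 22.8 and 20.6 in GC-1 (2.49 ± 0.23, limma adjusted p = 0.00111). Prg2, an eosinophil granule protein, changed by 1.45 ± 0.42 (limma adjusted p = 0.037). Prg2 was well above background on 1 of the 2 GC-1 arrays. Epor, the erythropoietin receptor, had signals of 55.2 and 29.7 in GC-2, against 1196 and 1092 in GC-1 (-3.58 ± 0.24, limma adjusted p = 0.000411). Ank1, a red cell membrane protein, changed by -2.28 ± 0.27 (limma adjusted p = 0.00209). Klf1 stood well above background in each line, and Gata1 in GC-1 only. The part of Gata1 in the Klf1 change was not tested.

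Of 18 heart and endoderm targets, 14 were tested, 4 were higher and 6 lower, with a median of -0.48. Nppb, a natriuretic peptide of the heart, had signals of 7.87 and 3.35 in GC-2 on its brightest tested probe, A_66_P125089, against 4336 and 5715 in GC-1. That probe was not well above background in GC-2 and was at least 258-fold lower there (limma adjusted p = 0.000118). The other Nppb probe was well above background on 1 of the 2 GC-2 arrays. Afp, a fetal liver protein, changed by -2.97 ± 0.27 (limma adjusted p = 0.00102) and Foxa2, an endoderm factor, by -2.95 ± 0.23 (limma adjusted p = 0.00063). Lama1, a basement membrane laminin, was not well above background in GC-1, and its GC-2 level was higher by at least 33.5-fold (limma adjusted p = 0.000205). Tnni3, a heart muscle troponin, changed by 2.66 ± 0.66 (limma adjusted p = 0.0237) and the endoderm factor Sox17 by 1.89 ± 0.30 (limma adjusted p = 0.00549). Tnni3 was well above background on 1 of the 2 GC-1 arrays.

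Of 16 epithelial genes associated with GATA3, 10 were tested, 2 were higher and 4 lower, with a median of 0.08. Upk1b, a uroplakin of the bladder lining, had signals of 16.01 and 8.47 in GC-2, against 46977 and 80937 in GC-1 (-11.13 ± 0.32, limma adjusted p = 0.000118). The epithelial factors Grhl2 and Grhl3 were not well above background in GC-2 and were at least 7.40-fold (limma adjusted p = 0.00873) and 5.02-fold (limma adjusted p = 0.000864) lower there. Krt7, a keratin of simple epithelium, changed by -2.36 in the fit (limma adjusted p = 0.00521). It was not well above background in GC-2, and its bound was only 1.03-fold lower there. Tfap2a, an early ectoderm factor, rose by 3.68 ± 0.46 (limma adjusted p = 0.00269), and Pparg, the fat cell and urothelial receptor, by 2.86 ± 0.38 (limma adjusted p = 0.00317). Tfap2a was well above background on 1 of the 2 GC-1 arrays.

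**Figure D4:**
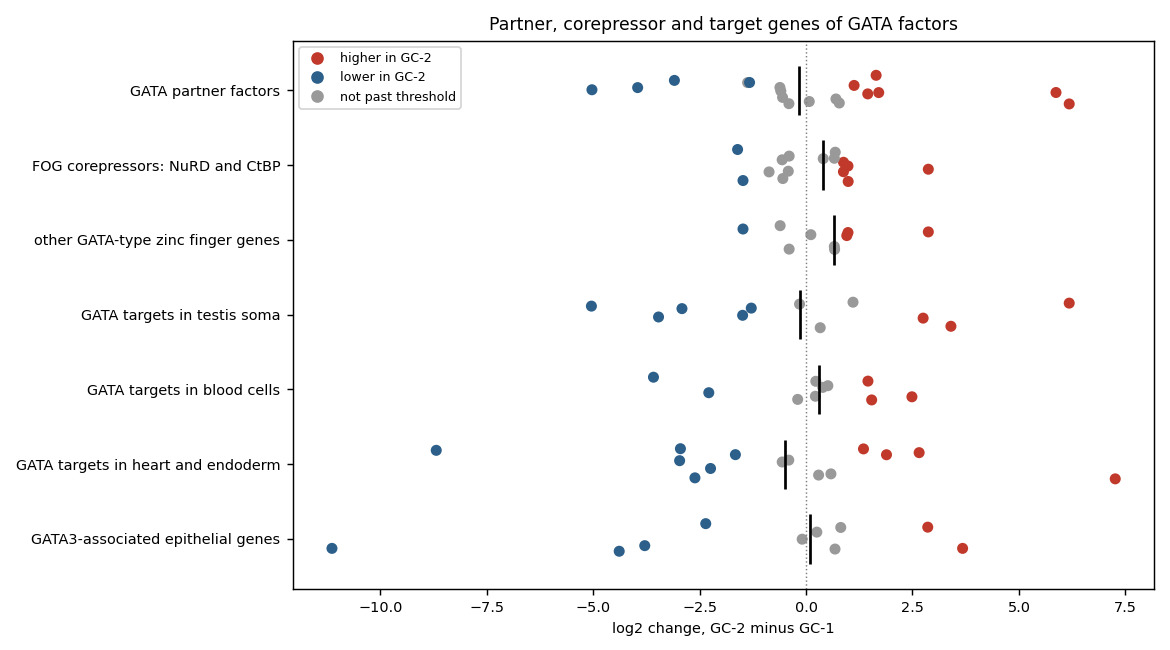
Change of each tested gene (x axis, log2, GC-2 minus GC-1) in 7 lists of partners, corepressors and targets of GATA factors, 1 list per line of points, spread vertically for view. Red points were higher and blue points lower in GC-2 by limma, grey points were not called, and black bars mark the list medians, which lie between -0.48 and 0.66. Points at the far ends are Upk1b and Nppb, which were lower in GC-2, and Lama1 and Nr5a1, which were higher.

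The genes whose values over the 4 arrays were closest to those of a member were found by the root mean square distance of log2 values, each centred on its own mean, among 30316 probes. With 2 lines, likeness says mostly that a gene changed by the same amount, and 208 to 2147 probes lay within 0.3 of each of the 6 members compared. Gata1 and Zfpm2 were not compared. Adipor2, Esyt1 and Hpf1 were closest to Gata4 (from 0.036), and Itsn1, Rhno1 and Akap10 to Gata5 (from 0.0125). Lrrc75b, Lox and Phf10 were closest to Gata2 (from 0.026), and Chn2, Eya4 and Pstpip1 to Gata3 (from 0.0233). Mtss1 and Lrrc8d were among the closest to Gata6 (from 0.0514), and Procr, Scamp5 and Tti2 to Zfpm1 (from 0.0197).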

How the data were processed

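Total RNA of GC-2 and GC-1 cells was labelled with Cy3 and hybridised to 1-colour Agilent arrays, 2 per line, per the labels. The deposited intensity of each spot was made with Agilent Feature Extraction 11.5.1.1, per the file headers: a processed signal (background subtracted, not normalized between arrays), the raw mean signal, the local background and flags. The authors' deposited table holds log2 values, 1 per gene name. Probe positions are those of the files, on mm9. The exon, intron or UTR that each probe lies in was not looked up, since no mm9 annotation was used here.

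The log2 processed signal minus the 75th percentile of each array was tested by two-sided lmFit and eBayes fits of limma 3.58.1 under R 4.3.3. The 36692 probes tested had a value on all 4 arrays and, in 1 line or both, exceeded background clearly on the pair of arrays. Control spots and outlier spots (92 to 224 per array) were left out, and no spot was saturated. Benjamini-Hochberg adjustment ran over all 36692 probes. Probes were named through the RefSeq gene table (32994 by accession, 10224 by symbol, 520 by synonym, 12867 kept the name of the files), while the members were taken by the gene name in the files. Where neither array of a line had a probe well above background, its level there is a bound, given as at least N-fold. The adjusted p printed with it belongs to the fitted change.

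The fit was tested on simulated data. All member probes were named. From each list, up to 3 genes with the largest change past the threshold in each direction were named, with genes measured in 1 line alone, and up to 3 genes closest in pattern to a member. Some genes that this rule takes are not reported here. Some genes were named outside this rule and were chosen after their values were seen. These are the antisense neighbours and the genes that share a run with the Gata5 probe. The others are Sox9, Lmo2, Ldb1, Clu, Wt1, Trf, Cyp11a1, Fshr and Amh. The members and lists were chosen with earlier results of these data known. Alternatives were the background correction, 3 other scalings, 2 other filters, each array left out, a replicate block, the authors' table and the mean over the probes of a gene.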

Additional observations from a re-analysis of the deposited data

How the results depend on the processing

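The rises depended on the scaling. With the E1A spike-in scaling 0 GATA and FOG probes were higher in GC-2, against 3, and the signs of Gata4 A_55_P2744782 (-0.63), Gata5 A_55_P2046867 (-0.54) and Zfpm1 A_55_P1987984 (-1.44) turned. The median of all probes was then -1.999 and 5.32% of all calls were higher, against 52.7% with the 75th percentile, 65.3% with normexp, 39.0% with median centring and 50.7% with quantile normalization. With normexp the signs of Gata1 (0.33), Zfpm2 A_52_P255261 (0.49) and Zfpm2 A_52_P633571 (0.66) turned, and the cause was not tested. Normexp was run with an offset of 50, and the median of all probes was 0.503 with it, against 0.07. The dim Gata4 A_55_P2744782 was at 1.16 there (limma adjusted p = 0.0198). A probe this dim lies close to the offset on every array. Its change there can follow from the array percentiles and is no check of the rise. Signal over background leaves Gata1 and Zfpm2 A_52_P633571 with only a bound in GC-2. Without GC-1 replicate 1, Zfpm1 A_55_P1987984 was at -0.033 (range -0.03 to 1.29 over the 4 arrays left out), and without GC-2 replicate 1 Zfpm2 A_52_P255261 was at 0.18 (range -1.29 to 0.18). In the authors' table Zfpm2 was at 0.23. Without 1 array 2 to 3 member probes were higher and 7 to 8 lower. Apart from the spike-in scaling and normexp, the probes of Gata1, Gata2, Gata3, Gata4 and Gata6 and the first of Zfpm1 kept their direction and their side of the threshold under every alternative that could be run on them, with a largest adjusted p of 0.0371.

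Partner factors had 2 genes higher under the spike-in scaling, and 8 lower with median centring, 13 under the spike-in scaling and 2 with the filter on all 4 arrays. Corepressors had 2 higher with normexp, 1 with median centring, 0 under the spike-in scaling, 1 with no filter and 1 to 2 without 1 array, and 4 lower with median centring and 14 under the spike-in scaling. Other GATA-type zinc finger genes had 1 higher with median centring, 0 under the spike-in scaling, 1 with no filter and 1 to 2 without 1 array, and 8 lower under the spike-in scaling. Testis targets had 3 lower with normexp and 3 with the filter on all 4 arrays. Blood targets had 5 higher with normexp and 0 under the spike-in scaling, and 1 lower with normexp and 7 under the spike-in scaling. Heart and endoderm targets had 1 higher under the spike-in scaling, 2 with the filter on all 4 arrays and 2 to 3 without 1 array, and 10 lower under the spike-in scaling. Epithelial genes had 1 higher under the spike-in scaling and 1 with the filter on all 4 arrays, and 1 lower with normexp, 8 under the spike-in scaling and 1 with the filter on all 4 arrays. The stricter filter tests fewer genes, and the cause of the other moves was not tested.

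The replicate numbers of the titles are not taken as pairs, since only 2 pairs exist (r of same-numbered deviations 0.124). Over all probes, the replicate block gave 9132 rises and 8200 falls, against 8845 and 7935, and the calls of the GATA and FOG probes did not change. Dropping the filter, over 56571 probes, gave 8335 rises and 5906 falls, and dropping GC-1 replicate 1 gave 5755 and 4928.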
